A study of Mus musculus with 11 samples.

Results

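The mRNA of 10 receptor tyrosine kinases was compared between 3 mouse cell lines: the FGF receptors Fgfr1, Fgfr2, Fgfr3 and Fgfr4, the ErbB receptors Egfr, Erbb2 and Erbb3, the PDGF receptors Pdgfra and Pdgfrb, and Met, the receptor of HGF. These genes were chosen by symbol with earlier results of these data known, and are 10 of the 23352 gene symbols used. The series profiled lines that are used to study BMP signalling, by RNA sequencing of total RNA in 11 libraries, and the growth factor receptors bear on which other signals each line could receive. NMuMG is a mammary epithelial line (strain NAMRU), the ES cells are the E14 embryonic stem cell line (129/Ola), and NIH3T3 is an embryonic fibroblast line (NIH/Swiss). NMuMG replicates 1 and 3, ES replicate 1 and NIH3T3 replicate 1 were parental cultures with no transgene. NMuMG replicates 2 and 4 and ES replicates 2 and 3 carried a BRE reporter, in which a BMP response element drives a reporter gene; ES replicate 2 is the mean of 2 technical runs. NIH3T3 replicates 2 and 3 could be tied to the line only; the remaining NIH3T3 labels name reporter cultures. Every line grew in serum (FBS for NMuMG and ES cells, CCS for NIH3T3), so growth factors of serum were present in each culture, and the ES medium also held the cytokine LIF. The labels do not say whether a reporter culture was a single clone, and beyond the word Bio they do not say that replicates were separate cultures, so p-values measure the spread between these samples, which may be technical.

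Receptor tyrosine kinases sit in the plasma membrane, pair up when a ligand binds outside, and phosphorylate each other inside. Adaptors then recruit the RAS, RAF, MEK and ERK kinases and PI3 kinase, and ERK signalling induces its own inhibitors and a set of transcription factors. In development, FGF7 and FGF10 of mesenchyme act on the epithelial splice form of Fgfr2, HGF of mesenchyme acts on epithelial Met, PDGF receptors mark mesenchyme and fibroblasts, and autocrine Fgf4 acts through FGF receptors on ES cells. mRNA levels do not show protein, splice form or activity.

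The libraries fell into 3 library series, taken from the number runs in the table names: ES replicates 1 and 2 with NMuMG replicates 1 and 2 (series 1), ES replicate 3, NMuMG replicates 3 and 4 and NIH3T3 replicate 1 (series 2), and NIH3T3 replicates 2 and 3 (series 3). Read depth is unknown; relative to ES replicate 1 it was estimated at 0.933 to 1.06 in series 1, 1.13 to 1.28 in series 2 and 3.80 to 3.81 in series 3, so that the lowest values rest on most reads in NIH3T3 replicates 2 and 3. Defining markers matched the labels. The summed level of Pou5f1, Nanog, Zfp42 and Sox2 was 1720 to 2450 FPKM (fragments per kilobase of transcript, scaled to the library's mapped fragments) in ES cells and at most 2.40 in the other lines, that of Col1a1, Col1a2, Thy1 and Col3a1 was 1780 to 4350 in NIH3T3 and at most 4.62 elsewhere, and that of Cdh1, Epcam, Krt8 and Krt18 was 3500 to 4930 in NMuMG, 151 to 185 in ES cells and at most 0.642 in NIH3T3. Krt8 and Krt18 carried the NMuMG sum, while Epcam was higher in ES cells (69.9 FPKM on average) than in NMuMG (4.65; log2 change 3.74, limma adjusted p = 1.496e-06). Markers of blood, endothelium, fat and muscle summed to at most 1.27 in NMuMG, 5.36 in NIH3T3 and 31.3 in ES cells, where Laptm5 and Pecam1 led them.

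Each line carried its own receptor set. NMuMG cells had Fgfr2, Fgfr3, Erbb2, Met and Egfr, NIH3T3 cells had Pdgfra, Fgfr1 and Pdgfrb with Met, Erbb2 and Fgfr2 below them, and ES cells had Fgfr1 with little of the rest. The order of mean levels in NMuMG was Fgfr2 (25.9 FPKM), Fgfr3 (25.2), Erbb2 (22.9), Met (21.2), Egfr (14), Erbb3 (2.02), Fgfr4 (1.22), Pdgfra (0.0869), Fgfr1 (0.0743) and Pdgfrb (0.00445). Neighbours in that order overlapped in their ranges except Egfr with Erbb3 and Fgfr1 with Pdgfrb. In NIH3T3 the order was Pdgfra (111), Fgfr1 (75.0), Pdgfrb (52.1), Met (16.7), Erbb2 (15.4), Fgfr2 (8.71), Egfr (0.543), Erbb3 (0.0274), Fgfr4 (0.0124) and Fgfr3 (0.00441), with gaps between Pdgfrb and Met and between Fgfr2 and Egfr. ES cells ordered them Fgfr1 (14.3), Erbb3 (3.99), Fgfr2 (2.25), Erbb2 (2.07), Pdgfra (1.01), Fgfr4 (0.680), Met (0.505), Fgfr3 (0.456), Pdgfrb (0.439) and Egfr (0.366), and Fgfr1 alone stood clear of the next gene.

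**Figure D1:**
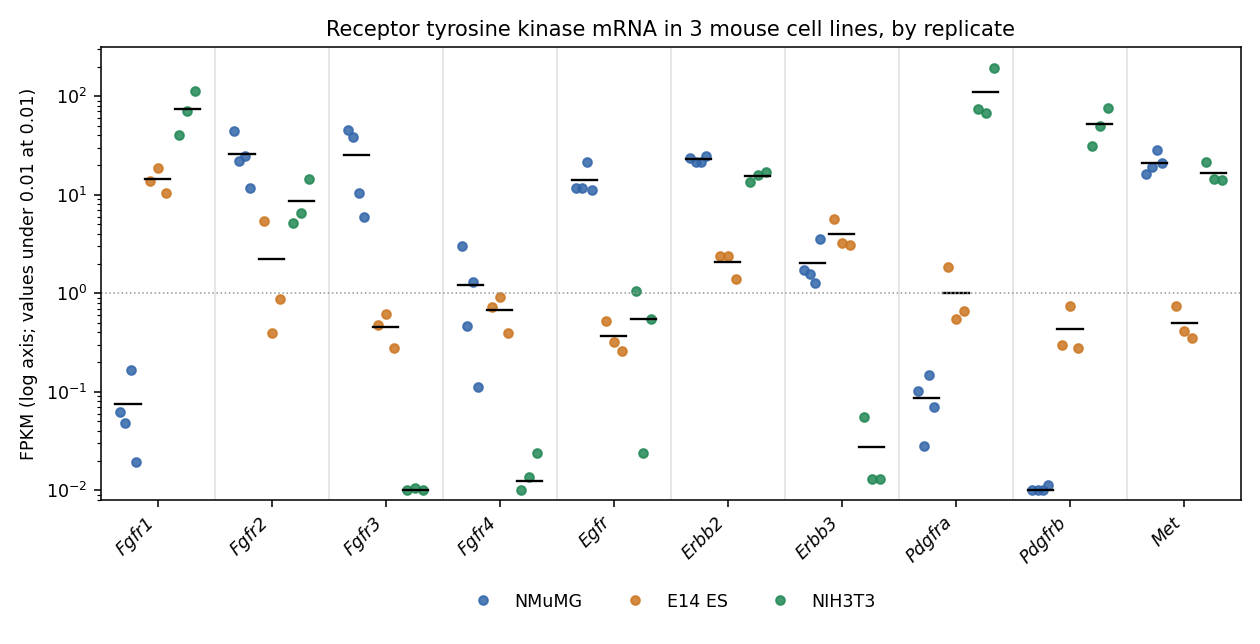
Level of each receptor in FPKM on a log axis, with 1 point per replicate (4 NMuMG, 3 E14 ES, 3 NIH3T3), the line mean as a bar and values under 0.01 drawn at 0.01; the dotted line marks 1 FPKM. Fgfr1 runs from at most 0.167 in NMuMG to at least 40.3 in NIH3T3, and the PDGF receptors reach 31.1 or more in NIH3T3 and no more than 1.83 in the other lines.

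Of the 10 receptors, 9 passed the filter on low values (at least 1 FPKM in at least 3 of the 10 replicates), and Fgfr4, at 1 FPKM in 2 replicates, did not. Pdgfrb reached 1 FPKM in NIH3T3 only and Fgfr3 in NMuMG only, so each passed through the line where it was high. For such genes, here and in the lists below, the filter favours a call against the lines where they are low. Counts of calls are therefore a description. Changes are limma log2 changes on the log2(FPKM + 1) scale, which understates those of low genes, with adjusted p-values over 12350 genes; called means an adjusted p under 0.05 together with a 2-fold change or more, and higher or lower is written of called genes. In NIH3T3 against NMuMG, 3 receptors were higher (10.6% of all genes tested were) and 3 lower (14.4%; 25.0% in either direction). In ES cells against NMuMG, 1 was higher (19.4%) and 5 lower (26.4%; 45.8% in either direction). In ES cells against NIH3T3, 1 was higher (20.1%) and 6 lower (23.0%; 43.0% in either direction). The median log2 change of the 9 receptors was -0.55, -2.98 and -2.22 in these comparisons, beside -0.05, -0.09 and 0.03 over the genes tested. The replicates of the 2 lines did not overlap for 8 of the 10 receptors in each comparison, where 45.9%, 71.4% and 67.0% of genes tested did not. The receptor counts lie close to the last 2 shares. Fgfr4, which was not among the genes tested, is 1 of the 8 in NIH3T3 against NMuMG and in ES cells against NIH3T3. The comparisons share their lines pairwise and are not independent.

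**Figure D2:**
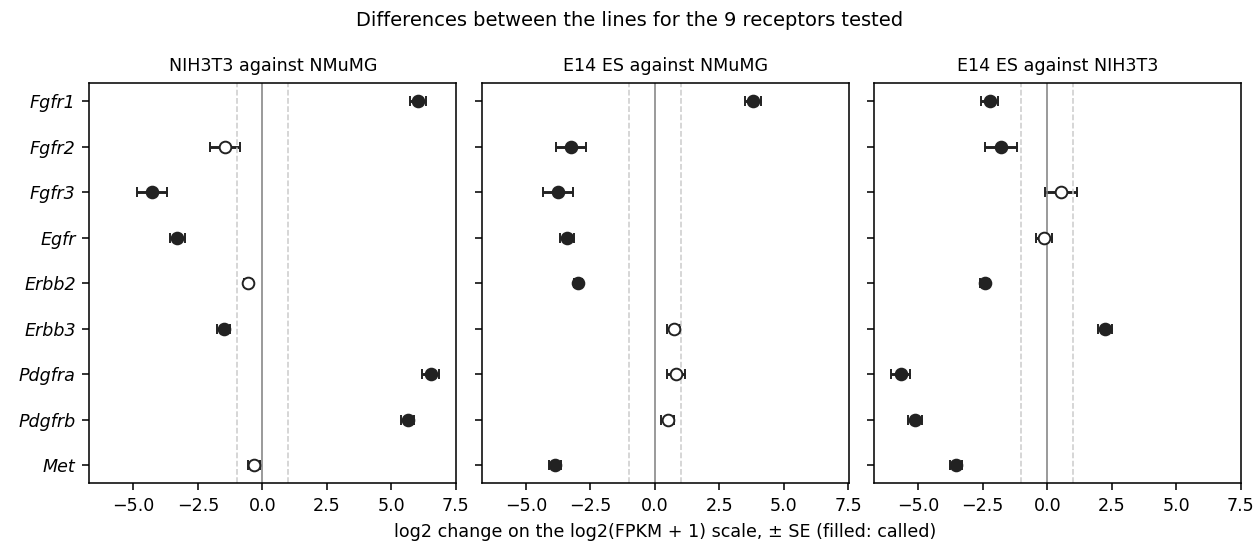
limma log2 change with its SE for the 9 receptors tested, in 3 panels for NIH3T3 against NMuMG, E14 ES against NMuMG and E14 ES against NIH3T3, on the log2(FPKM + 1) scale; filled points were called and dashed lines mark a 2-fold change. In NIH3T3 against NMuMG, Fgfr1, Pdgfra and Pdgfrb lie at 6.03, 6.53 and 5.64 and Fgfr3 and Egfr at -4.29 and -3.29.

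The FGF receptors divided between the lines by member. Fgfr1, the form of mesenchyme and of early embryo cells (mm10 chromosome 8, 25518772 to 25575714, plus strand), stood at 0.0626, 0.0477, 0.167 and 0.0196 FPKM in NMuMG replicates 1 to 4, at 13.8, 18.7 and 10.5 in ES replicates 1 to 3, and at 40.3, 71.6 and 113 in NIH3T3 replicates 1 to 3. The 3 lines did not overlap, with NMuMG near 0, ES cells in between and NIH3T3 on top. The mean was 193-fold higher in ES cells than in NMuMG, or 331-fold without NMuMG replicate 3 (log2 change 3.80, SE 0.308, limma adjusted p = 2.436e-06). NIH3T3 stood higher again, by a log2 change of 6.03 over NMuMG (SE 0.308, limma adjusted p = 1.083e-07), and ES cells were 5.22-fold below NIH3T3 (log2 change -2.22, SE 0.329, limma adjusted p = 0.0001986). Bulk RNA cannot tell fewer cells with a transcript from less of it per cell, here or in any result that follows.

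Fgfr2, the receptor of FGF7 and FGF10 in its epithelial splice form (chromosome 7, 130162451 to 130266808, minus strand), measured 44.7, 22.2, 24.9 and 11.6 FPKM in NMuMG, 5.48, 0.396 and 0.874 in ES cells, and 5.17, 6.59 and 14.4 in NIH3T3. NMuMG lay above every ES replicate but overlapped NIH3T3, whose replicate 3 passed NMuMG replicate 4, and ES replicate 1 overlapped NIH3T3. The ES mean was 11.5-fold below that of NMuMG, or 40.7-fold without ES replicate 1 (log2 change -3.24, SE 0.574, limma adjusted p = 0.0005901). NIH3T3 against NMuMG was not called (log2 change -1.44, SE 0.574, limma adjusted p = 0.07095), but was called without NMuMG replicate 4, ES replicate 1 or NIH3T3 replicate 3 (limma adjusted p = 0.03895, 0.03157 and 0.04752). ES cells against NIH3T3 was called at -1.80 (SE 0.614, limma adjusted p = 0.02572), and lost without ES replicate 2, ES replicate 3 or NIH3T3 replicate 3 (limma adjusted p = 0.104, 0.08679 and 0.09836) and with the library series as a term (limma adjusted p = 0.1481). With parental cultures only, this ES against NIH3T3 log2 change was 0.07 (limma adjusted p = 0.9461).

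Fgfr3, known for restraining bone growth and also made in epithelia (chromosome 5, 33721724 to 33737068, plus strand), measured 46.0, 38.2, 10.5 and 5.98 FPKM in NMuMG replicates 1 to 4, 0.473, 0.614 and 0.281 in ES cells, and 0, 0.0106 and 0.00265 in NIH3T3. Each NMuMG value exceeded every value of the other lines, and within NMuMG the 2 libraries of series 1 stood above the 2 of series 2, by 4.39-fold between the parental and 6.39-fold between the reporter cultures. It was lower than in NMuMG in ES cells (log2 change -3.76, SE 0.575, limma adjusted p = 0.0002176) and in NIH3T3 (log2 change -4.29, SE 0.575, limma adjusted p = 0.0001689). Within series 2 alone these changes were -2.80 and -3.16 and neither was called (limma adjusted p = 0.0679 and 0.1036), and within series 1 the ES change was -4.80, which was called. ES cells and NIH3T3 did not overlap, yet their difference was not called (log2 change 0.53, SE 0.615, limma adjusted p = 0.4752), became -0.44 with the library series as a term, and was called at 2.37 with a pseudocount of 0.1 FPKM.

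Fgfr4, the member that serves liver and FGF15 signalling (chromosome 13, 55152818 to 55168759, plus strand), measured 2.99, 0.466, 1.31 and 0.111 FPKM in NMuMG replicates 1 to 4, 0.721, 0.924 and 0.395 in ES cells, and 0, 0.0135 and 0.0237 in NIH3T3. NMuMG and ES cells overlapped, NIH3T3 stood below both, and the 2 parental NMuMG replicates exceeded the 2 reporter replicates. As shares of the summed FGF receptor FPKM, Fgfr1 made up 0.177% ± 0.185 (SD, n = 4) in NMuMG, 81.7% ± 12.5 (n = 3) in ES cells and 89.6% ± 1.67 (n = 3) in NIH3T3. Fgfr2 and Fgfr3 together held nearly all of the NMuMG total, at 54.3% ± 14.9 and 43.5% ± 15.5. They were nearly equal in replicate 1 (Fgfr2 47.7%, Fgfr3 49.0%), Fgfr3 led in replicate 2 (62.7%), and Fgfr2 led in replicates 3 and 4 (67.6% and 65.5%). The family's summed level was 17.7 to 93.8 FPKM in NMuMG, 12.1 to 20.6 in ES cells and 45.5 to 127 in NIH3T3, with NMuMG overlapping both other lines.

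**Figure D3:**
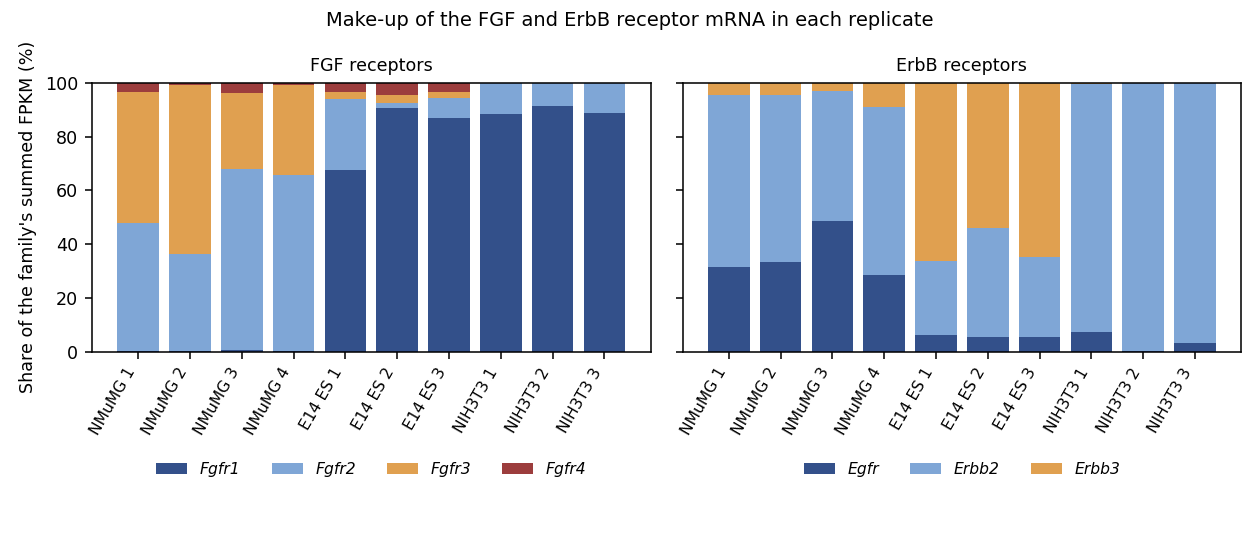
Share (percent) of each member in the summed FPKM of the 4 FGF receptors (left) and the 3 ErbB receptors (right), 1 stacked bar per replicate. Fgfr1 fills 67.5% or more of every ES and NIH3T3 bar and at most 0.454% of an NMuMG bar, and Erbb3 fills 54.1% or more of each ES bar and at most 8.93% elsewhere.

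Among the ErbB receptors, Egfr binds EGF, TGF-alpha, amphiregulin and others; Erbb2 binds no known ligand and is the preferred partner of the rest; Erbb3 binds neuregulins. Egfr (chromosome 11, 16752203 to 16913907, plus strand) measured 11.8, 11.6, 21.5 and 11.3 FPKM in NMuMG, 0.520, 0.320 and 0.258 in ES cells, and 1.05, 0.0241 and 0.549 in NIH3T3. NMuMG stood far above the other lines, which overlapped, and the NIH3T3 values ranged over 43.8-fold. The mean was 38.3-fold lower in ES cells (log2 change -3.41, SE 0.277, limma adjusted p = 2.49e-06) and 25.9-fold lower in NIH3T3 (log2 change -3.29, SE 0.277, limma adjusted p = 5.028e-06) than in NMuMG. Without NIH3T3 replicate 1 the latter fold was 49.0. ES cells against NIH3T3 gave -0.12 (SE 0.297, limma adjusted p = 0.7393), and 0.11 without NIH3T3 replicate 1.

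Erbb2 (chromosome 11, 98412484 to 98437716, plus strand) varied least of the 10 within NMuMG and within NIH3T3: 23.7, 21.8, 21.5 and 24.7 FPKM in NMuMG, 2.38, 2.42 and 1.41 in ES cells, and 13.5, 15.8 and 16.9 in NIH3T3. The 3 lines did not overlap, and ES cells stood lowest. They were 11.1-fold below NMuMG (log2 change -2.98, SE 0.164, limma adjusted p = 1.451e-07) and 7.45-fold below NIH3T3 (log2 change -2.43, SE 0.175, limma adjusted p = 1.224e-06). NIH3T3 had a limma adjusted p of 0.02229 against NMuMG with a log2 change of -0.55 (SE 0.164), under the 2-fold limit.

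Erbb3 (chromosome 10, 128569368 to 128589501, minus strand) measured 1.73, 1.58, 1.26 and 3.53 FPKM in NMuMG, 5.68, 3.23 and 3.07 in ES cells, and 0.0561, 0.0130 and 0.0130 in NIH3T3. NIH3T3 was near 0, while NMuMG replicate 4 reached into the ES range. NIH3T3 was lower than NMuMG (log2 change -1.50, SE 0.254, limma adjusted p = 0.0008356), and ES cells were higher than NIH3T3 (log2 change 2.24, SE 0.272, limma adjusted p = 4.867e-05). ES cells against NMuMG had a limma adjusted p of 0.02458 at a log2 change of 0.74 (SE 0.254), under 2-fold, and was called within series 1 (1.00), with quantile normalization (1.17) and with parental cultures only (1.43). As a share of the summed ErbB FPKM, Erbb3 made up 61.7% ± 6.61 (SD, n = 3) in ES cells, 5.24% ± 2.59 (n = 4) in NMuMG and 0.180% ± 0.176 (n = 3) in NIH3T3, while Erbb2 made up 32.7% ± 6.87, 59.3% ± 7.17 and 96.3% ± 3.69. The ErbB sum was 34.9 to 44.3 FPKM in NMuMG, 14.7 to 17.5 in NIH3T3 and 4.74 to 8.59 in ES cells.

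Erbb3 is known as a kinase of very low activity that signals through its partners, so the ErbB member that led in ES cells is one that differs from the others in its kinase domain. The coding bases of the catalytic loop, 8 codons read from GENCODE M21 transcripts, are shown for it, for both ErbB partners and for Fgfr1, the leading FGF receptor of ES cells, with the sixth codon in capitals.
Egfr: caccgtgacttggcaGCCaggaat
Erbb2: cacagggacctagctGCCcgaaac
Erbb3: catagggaccttgcgCTCcggaat
Fgfr1: caccgagacctggctGCTaggaac
The sixth codon is an alanine codon in 8 of the 9 receptors examined and a leucine codon in Erbb3; the loop of Pdgfrb is not shown. The third codon, that of the catalytic aspartate, is an aspartate codon in all 9, Erbb3 included.

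The PDGF receptors were the fibroblast members. Pdgfra, which binds PDGF-A, PDGF-B and PDGF-C dimers (chromosome 5, 75152291 to 75198204, plus strand), measured 0.102, 0.0284, 0.147 and 0.0699 FPKM in NMuMG, 1.83, 0.544 and 0.664 in ES cells, and 74.5, 68.1 and 191 in NIH3T3. The 3 lines did not overlap, and NIH3T3 replicate 3 was 2.81-fold above replicate 2. NIH3T3 was higher than NMuMG (log2 change 6.53, SE 0.346, limma adjusted p = 1.428e-07), and ES cells were 110-fold below NIH3T3 (log2 change -5.69, SE 0.370, limma adjusted p = 5.852e-07). That fold was 184 without ES replicate 1 and 70.3 without NIH3T3 replicate 3. ES cells against NMuMG, both low, gave 0.84 (SE 0.346, limma adjusted p = 0.0526). It was called at 2.44 with a pseudocount of 0.1 FPKM, at 1.27 with one of 0.5, and at 1.33 with parental cultures only (limma adjusted p = 0.001195, 0.01321 and 0.04844).

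Pdgfrb, the receptor of PDGF-B and PDGF-D (chromosome 18, 61045150 to 61085067, plus strand), was listed at 0 in NMuMG replicates 1 and 2 and measured 0.00643 and 0.0114 FPKM in replicates 3 and 4, 0.298, 0.740 and 0.279 in ES cells, and 31.1, 49.9 and 75.3 in NIH3T3. Again no line overlapped another. NIH3T3 was higher than NMuMG (log2 change 5.64, SE 0.258, limma adjusted p = 4.804e-08), and ES cells were 119-fold below NIH3T3, or 181-fold without ES replicate 2 (log2 change -5.13, SE 0.276, limma adjusted p = 1.495e-07). ES cells against NMuMG gave 0.50 (SE 0.258, limma adjusted p = 0.107), and 2.27 with a pseudocount of 0.1 FPKM, which was called. Pdgfra made up 70.6%, 57.7% and 71.8% of the PDGF receptor FPKM in NIH3T3 replicates 1 to 3 and led in each.

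Met, through which HGF drives scattering and migration of epithelial cells (chromosome 6, 17463957 to 17573980, plus strand), measured 16.2, 19.1, 28.5 and 21.1 FPKM in NMuMG, 0.745, 0.414 and 0.355 in ES cells, and 21.4, 14.4 and 14.2 in NIH3T3. NMuMG and NIH3T3 overlapped, and ES cells stood below both. The ES mean was 42.0-fold below NMuMG (log2 change -3.86, SE 0.221, limma adjusted p = 1.902e-07) and 33.0-fold below NIH3T3 (log2 change -3.54, SE 0.236, limma adjusted p = 7.071e-07). NIH3T3 against NMuMG was not called (log2 change -0.33, SE 0.221, limma adjusted p = 0.2708).

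Within single library series the directions of the called changes were the same. In series 1, ES cells against NMuMG gave 4.02 for Fgfr1, -3.16 for Egfr, -2.80 for Erbb2, -3.44 for Fgfr2 and -3.56 for Met, and each of these was called. In series 2, where each of ES cells and NIH3T3 has 1 replicate that is assumed to vary like NMuMG, 3 receptors were called in each comparison: Fgfr1, Pdgfra and Pdgfrb in NIH3T3 against NMuMG (5.24, 6.09 and 4.99), Fgfr1, Erbb2 and Met in ES cells against NMuMG (3.40, -3.32 and -4.24), and Pdgfra, Pdgfrb and Met in ES cells against NIH3T3 (-5.50, -4.65 and -4.05). No NIH3T3 library is in series 1, and series 3 holds no other line.

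NIH3T3 replicate 3 held the highest Fgfr1, Fgfr2, Pdgfra and Pdgfrb of its line, at 2.80, 2.78, 2.57 and 2.42 times NIH3T3 replicate 1 and 1.58, 2.18, 2.81 and 1.51 times replicate 2. The fibroblast collagens Col1a1, Col1a2 and Col3a1 were highest there as well, at 1570, 1810 and 779 FPKM, beside 1250, 1060 and 304 in replicate 2 and 491, 782 and 63.8 in replicate 1, and Thy1 was lowest at 198 FPKM. Dusp6, at 9.36 FPKM beside 27.3 and 30.9, and Fosl1, at 10.7 beside 57.3 and 69.5, were lowest in it. So were Spry4, Dusp4, Errfi1, Etv4, Etv5, Egr1, Ier3 and Myc, while Spry1, Il17rd and Socs5 were highest there. Spry2, Spry3, Lrig3 and Etv1 lay between the other replicates. The remaining feedback inhibitors and ERK-induced transcription factors listed below were lowest in it too. The part of these differences in the receptor results was not tested, but without this replicate the log2 changes of Fgfr1, Pdgfra and Pdgfrb against NMuMG were 5.67, 6.06 and 5.33, each called.

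Reporter and parental cultures were compared in NMuMG and in ES cells, which asks whether carrying the reporter went with a change in the receptors. None of the 8 receptors tested was called in either line by limma, where 0.212% of 12276 genes were in NMuMG and 0.0978% in ES cells; at an unadjusted p under 0.05, 1 of 8 passed in each, Fgfr4 in NMuMG and Fgfr2 in ES cells, beside 5.17% and 8.95% of all genes. Fgfr4 reached 1 FPKM in the parental NMuMG replicates only, so it passed the filter of this fit through them, and the filter favours its difference. In NMuMG the log2 change of Fgfr4 was -1.25 (SE 0.330, limma unadjusted p = 0.01024, adjusted p = 0.572), with parental cultures at 6.42 and 11.8 times the reporter culture of the same series. Fgfr2 went the same way in NMuMG, by 2.02-fold and 2.14-fold within the series (log2 change -1.01, SE 0.414, limma adjusted p = 0.9786).

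In ES cells, Fgfr2 was 5.48 FPKM in the 1 parental replicate and 0.396 and 0.874 in the 2 reporter replicates (log2 change -2.0, SE 0.507, limma adjusted p = 0.3178). The lone parental replicate has no spread of its own and takes the spread of the remaining groups, so the ES reporter values and the difference between the lines rest on that assumption. The parental replicate also had the highest Erbb3, Egfr, Pdgfra and Met of the line, and other genes moved with it: Esrp1, an epithelial splicing factor that acts on Fgfr2, stood at 15.7 FPKM there against 3.88 and 6.85, Nanog at 129 against 193 and 340, Zfp42 at 296 against 535 and 696, and Fgf5 at 1.63 against 0.0158 and 0.0704. The other ES markers listed differed less, with Pou5f1 at 1030 against 1100 and 1130, and Sox2 at 267 against 300 and 276. The part of the genes that moved in the receptor values was not tested. The reporter effect did not differ between the lines for any of the 8 receptors at the threshold (smallest limma adjusted p = 0.648; 0.0244% of the genes tested were called).

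The ligands were examined from lists of the same pathways. The tables list 18 FGF ligands, of which 9 passed the filter. Fgf2 and Fgf7 reached 1 FPKM in NIH3T3 only, and Fgf3, Fgf4, Fgf15 and Fgf17 in ES cells only. These passed through the line where they were high, so their calls against the other lines were largely fixed by the filter. In NIH3T3 against NMuMG, Fgf7, Fgf10 and Fgf2 were higher and Fgf1 and Fgf18 lower; in ES cells against NMuMG, Fgf4, Fgf17, Fgf15 and Fgf3 were higher and Fgf1 lower; in ES cells against NIH3T3, 6 were higher and 3 lower. Of all genes tested, 10.6% were higher and 14.4% lower in the first of these comparisons, 19.4% and 26.4% in the second, and 20.1% and 23.0% in the third. The median log2 changes of the ligands were -0.02, 0.73 and 1.46, beside -0.05, -0.09 and 0.03 over the genes tested.

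Fgf7, a mesenchymal ligand of the epithelial form of Fgfr2, measured 104, 74.5 and 143 FPKM in NIH3T3, 0.0293 to 0.0823 in NMuMG and 0.0460 to 0.131 in ES cells. Only the fibroblasts had it above 1 FPKM, where its log2 change over NMuMG was 6.63 (SE 0.201, limma adjusted p = 3.565e-09). Fgf10, of the same receptor preference, was at 13.8, 5.79 and 16.7 FPKM in NIH3T3 and at most 1.03 in the other lines (log2 change over NMuMG 3.59, SE 0.296, limma adjusted p = 4.303e-06). Thus the line with the highest mean Fgfr2 had little of these ligands, and the line with the ligands had 8.71 ± 4.95 FPKM of Fgfr2 (SD, n = 3).

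Fgf4, the autocrine FGF of ES cells, measured 45.8, 63.4 and 56.2 FPKM in ES cells and at most 0.0575 in the other lines. ES cells and NMuMG did not overlap (log2 change 5.76, SE 0.143, limma adjusted p = 1.142e-09). Fgf17 was at 20.2, 21.5 and 25.1 FPKM in ES cells and at most 0.219 elsewhere (log2 change over NMuMG 4.46, SE 0.145, limma adjusted p = 4.658e-09). Fgf1, which binds every FGF receptor, was the leading FGF of NMuMG at 10.7, 13.8, 10.1 and 11 FPKM, and lower in ES cells (log2 change -2.56, SE 0.143, limma adjusted p = 1.642e-07) and in NIH3T3 (log2 change -3.61, SE 0.143, limma adjusted p = 1.783e-08). Each line therefore had a different leading FGF.

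The ErbB ligands number 11, of which 6 passed the filter, Areg, Btc and Tgfa through NMuMG alone. Against NMuMG, 6 were lower in ES cells (26.4% of all genes tested were) and 4 lower in NIH3T3 (14.4%), with none higher (median log2 changes -3.24 and -2.36). Ereg and Nrg1 were not called in NIH3T3 against NMuMG (log2 changes -0.14 and -0.49, limma adjusted p = 0.8497 and 0.2996). Against NIH3T3, 2 of the 6 were lower in ES cells, Ereg and Nrg1 (23.0% of all genes were). Areg, or amphiregulin, the EGFR ligand of mammary duct growth, measured 22.2, 47.3, 99.3 and 126 FPKM in NMuMG, at most 0.0179 in ES cells and at most 0.924 in NIH3T3. Its level in NMuMG was higher in both libraries of series 2 than in those of series 1, the reverse of Fgfr3. Tgfa measured 12.9, 17.6, 21.5 and 36.6 FPKM in NMuMG, at most 0.545 in ES cells, and was listed at 0 in each NIH3T3 replicate.

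Areg fell below NMuMG by a log2 change of -5.93 in ES cells (SE 0.504, limma adjusted p = 3.422e-06) and -5.53 in NIH3T3 (SE 0.504, limma adjusted p = 9.243e-06). Nrg1, a neuregulin that binds Erbb3, was at 18.1 ± 5.23 FPKM in NMuMG (SD, n = 4), 13.6 ± 8.39 in NIH3T3 (n = 3) and 0.705 ± 0.274 in ES cells (n = 3). ES cells, with the highest mean Erbb3 but no call over NMuMG, were lowest in Nrg1 (log2 change against NMuMG -3.45, SE 0.348, limma adjusted p = 1.147e-05). Nrg2, a neuregulin that did not pass the filter, had its highest mean in ES cells (0.845 FPKM, beside 0.467 in NMuMG, with overlap). Hbegf was the leading ErbB ligand of ES cells at 2.48, 4.90 and 13.9 FPKM, below the 25.0 to 28.1 of NMuMG.

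**Figure D4:**
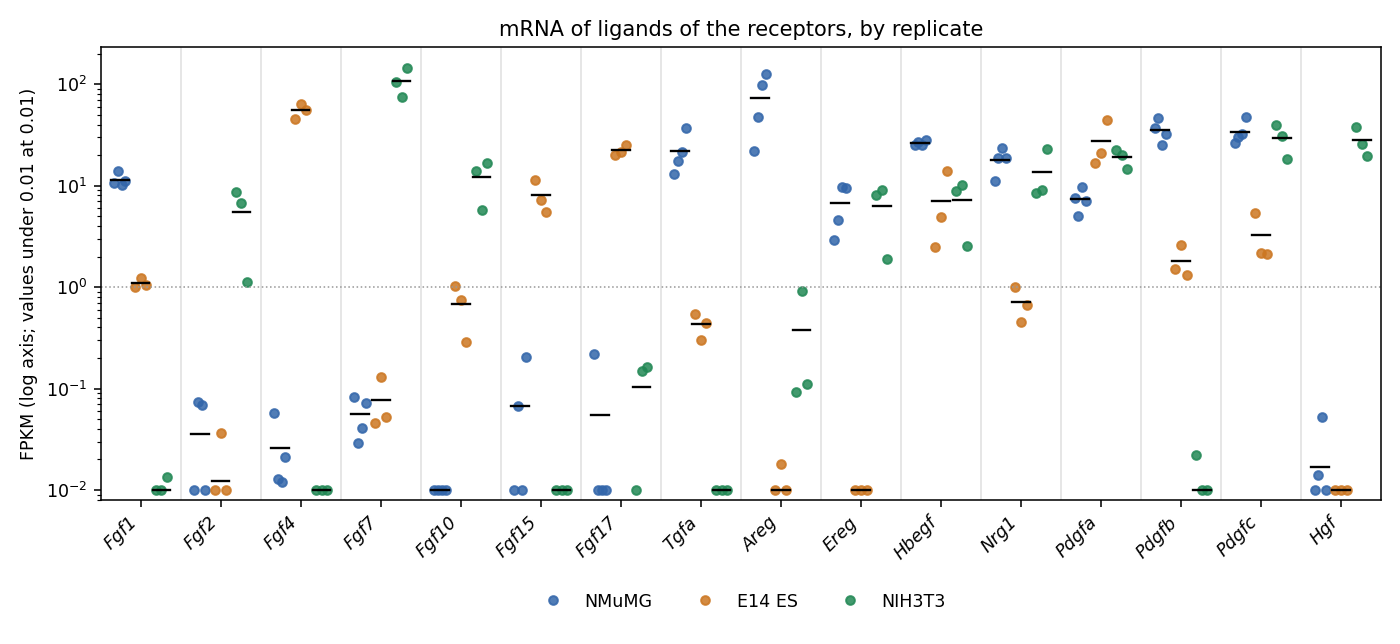
Level of 16 ligands in FPKM on a log axis, with 1 point per replicate, the line mean as a bar and values under 0.01 drawn at 0.01; the dotted line marks 1 FPKM. Fgf7, Fgf10 and Hgf are high in NIH3T3, Fgf4 and Fgf17 in E14 ES cells, and Fgf1, Tgfa, Areg and Pdgfb in NMuMG.

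Of the 5 PDGF and HGF ligands 4 passed the filter, Hgf through NIH3T3 alone. Hgf, the ligand of Met, measured 37.9, 26.0 and 19.8 FPKM in NIH3T3, at most 0.0526 in NMuMG, and was listed at 0 in each ES replicate. Its log2 change in NIH3T3 over NMuMG was 4.78 (SE 0.193, limma adjusted p = 1.938e-08), so NIH3T3 had the mRNA of both Hgf and Met, and NMuMG that of Met. Pdgfb, the chain that binds both PDGF receptors, measured 37.0, 46.5, 25.3 and 32.6 FPKM in NMuMG, 1.31 to 2.60 in ES cells and at most 0.0223 in NIH3T3. It was lower in NIH3T3 (log2 change -5.14, SE 0.224, limma adjusted p = 3.426e-08) and in ES cells (log2 change -3.69, SE 0.224, limma adjusted p = 3.011e-07), so the line lowest in PDGF receptor mRNA was highest in this ligand.

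Pdgfa was the leading PDGF of ES cells at 16.8, 20.9 and 44.5 FPKM and was higher than in NMuMG there (log2 change 1.68, SE 0.320, limma adjusted p = 0.0009495) and in NIH3T3 (log2 change 1.27, SE 0.320, limma adjusted p = 0.00913). The NIH3T3 call was lost with the library series as a term (log2 change 1.17, limma adjusted p = 0.06102). Pdgfc led in NIH3T3 at 39.4, 30.8 and 18.2 FPKM, overlapped NMuMG at 26.6 to 47.5, and was lower in ES cells than in NMuMG (log2 change -3.11, SE 0.329, limma adjusted p = 1.641e-05).

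Of 11 other receptors and co-receptors of these families 6 passed the filter; in NIH3T3 against NMuMG 3 were higher and 1 lower, and in ES cells 4 were lower than in NMuMG and 5 lower than in NIH3T3, with none higher (median log2 changes 1.13, -2.17 and -3.05). Over all genes tested, 10.6% were higher and 14.4% lower in the first comparison, and 26.4% and 23.0% were lower in ES cells. Erbb4, the remaining ErbB receptor, was listed at 0 in every replicate. Cd44, whose variants present growth factors to Met and ErbB receptors, measured 97.2 ± 20.4 FPKM in NMuMG (SD, n = 4), 50.4 ± 15.6 in NIH3T3 (n = 3) and 0.124 ± 0.0463 in ES cells (n = 3). Nrp1, a co-receptor of several growth factors, was at 16.4 ± 2.70, 34.1 ± 10.9 and 0.0621 ± 0.0445 FPKM. Both were lower in ES cells than in NMuMG (log2 changes -6.43, SE 0.233, and -4.03, SE 0.215, limma adjusted p = 8.426e-09 and 1.148e-07). Fgfrl1, an FGF receptor relative without a kinase domain, was higher in NIH3T3 than in NMuMG (18.9 ± 4.33 against 3.53 ± 1.07 FPKM, log2 change 2.14, SE 0.237, limma adjusted p = 4.099e-05), as was Nrp2 (log2 change 3.77, SE 0.529, limma adjusted p = 0.0002304). Flrt3, an FGF receptor partner, was lower there (log2 change -3.83, SE 0.348, limma adjusted p = 8.92e-06).

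Heparan sulfate, which FGFs need to bind their receptors, is made and trimmed by 9 listed enzymes, each of which was tested. In ES cells 4 were lower than in NMuMG and 1 higher, 5 were lower than in NIH3T3 and 2 higher, and in NIH3T3 1 was higher and 1 lower than in NMuMG (median log2 changes -0.82, -1.42 and 0.08). Counts in either direction, 5, 7 and 2 of 9, stand beside 45.8%, 43.0% and 25.0% of all genes tested. Ndst1, which starts sulfation of the chain, was at 17.5 ± 3.04 FPKM in NMuMG (SD, n = 4), 18 ± 1.11 in NIH3T3 (n = 3) and 3.41 ± 0.267 in ES cells (n = 3), a log2 change of -2.06 in ES cells against NMuMG (SE 0.158, limma adjusted p = 1.674e-06). Sulf1, which removes sulfate outside the cell, measured 14.3, 7.28 and 4.03 FPKM in ES cells, 2.17, 0.812 and 0.549 in NIH3T3, and at most 0.00938 in NMuMG. Its rise in ES cells over NMuMG had a log2 change of 3.10 (SE 0.349, limma adjusted p = 2.494e-05). NIH3T3 against NMuMG was called at 1.05 (limma adjusted p = 0.03535), but lost in 7 of the 10 fits that left out 1 replicate, where the limma adjusted p reached 0.1341 without NIH3T3 replicate 1.

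Esrp1 and Esrp2, splicing regulators that set the epithelial exon of Fgfr2, were among 4 listed splicing factors. Esrp2 measured 12.8, 10.6, 14 and 14.9 FPKM in NMuMG, 5.26, 1.95 and 1.51 in ES cells and at most 0.0124 in NIH3T3, without overlap. It was lower in NIH3T3 (log2 change -3.79, SE 0.281, limma adjusted p = 1.816e-06) and in ES cells (log2 change -1.96, SE 0.281, limma adjusted p = 0.0001383) than in NMuMG. Esrp1 was at most 0.0333 FPKM in NMuMG, listed at 0 in NIH3T3, and higher in ES cells than in NMuMG (log2 change 3.08, SE 0.323, limma adjusted p = 1.547e-05). It passed the filter through ES cells alone, which favours this call. The tables give 1 level per gene, so the splice forms of the receptors themselves were not analysed here.

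Adaptors and effectors carry the signal from the receptors. Of 21 tested, 1 was higher and 2 lower in NIH3T3 than in NMuMG, 1 higher and 6 lower in ES cells than in NMuMG, and 2 higher and 4 lower in ES cells than in NIH3T3 (median log2 changes 0.06, -0.22 and -0.26). In either direction that is 3, 7 and 6 of 21, beside 25.0%, 45.8% and 43.0% of all genes tested. Gab1, a docking protein of Met and Egfr, measured 62.3, 67.0 and 66.1 FPKM in ES cells, 2.79 to 4.38 in NMuMG and 3.55 to 6.07 in NIH3T3. ES cells stood apart (log2 change over NMuMG 3.91, SE 0.183, limma adjusted p = 4.863e-08). Gab2, its relative, was at 0.05 to 0.0783 FPKM in ES cells and 4.14 to 5.19 in NMuMG (log2 change -2.42, SE 0.133, limma adjusted p = 1.435e-07). Pik3r1, a PI3 kinase subunit that binds activated receptors, rose in NIH3T3 over NMuMG (27.1 ± 9.45 against 8.75 ± 1.44 FPKM, log2 change 1.49, SE 0.238, limma adjusted p = 0.0005913). Mapk3, or ERK1, was lower in NIH3T3 (log2 change -1.09, SE 0.190, limma adjusted p = 0.0009943) but under 2-fold without NIH3T3 replicate 2 (-0.96).

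Feedback inhibitors and transcription factors that ERK induces went in both directions. Of 16 feedback inhibitors, 4 were higher and 2 lower in NIH3T3 than in NMuMG, 4 higher and 4 lower in ES cells than in NMuMG, and 2 higher and 6 lower in ES cells than in NIH3T3 (median log2 changes 0.38, -0.31 and 0.18). In either direction that is 6, 8 and 8 of 16, and the last 2 counts lie near the 45.8% and 43.0% of all genes tested (25.0% in the first comparison). Spry3 passed the filter through NIH3T3 alone, which favours its calls. Spry4, a Sprouty inhibitor of FGF signalling to ERK, measured 40.8, 104 and 83.7 FPKM in ES cells, 0.199 to 1.10 in NMuMG and 2.64 to 4.57 in NIH3T3. No line overlapped another, and ES cells were higher than NMuMG (log2 change 5.58, SE 0.321, limma adjusted p = 2.024e-07). Errfi1, which inhibits Egfr and Erbb2, was at 7.16 ± 2.13 FPKM in ES cells (SD, n = 3) and 40.3 ± 3.90 in NMuMG (n = 4), and Lrig1, which promotes loss of ErbB receptors and Met, at 1.99 ± 0.0407 and 13.8 ± 0.761. Both were lower in ES cells (log2 changes -2.37, SE 0.495, and -2.31, SE 0.189, limma adjusted p = 0.001696 and 2.645e-06). Dusp6, the ERK phosphatase, was not called in any line comparison (44.5 ± 22.0 FPKM in NMuMG, 34.2 ± 6.74 in ES cells, 22.5 ± 11.5 in NIH3T3).

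Of 11 ERK-induced transcription factors, 5 were higher and 1 lower in NIH3T3 than in NMuMG, 4 higher and 5 lower in ES cells than in NMuMG, and 1 higher and 4 lower in ES cells than in NIH3T3 (median log2 changes 1.14, -0.09 and -0.97). Over all genes tested, 10.6% were higher and 14.4% lower in the first comparison, 19.4% and 26.4% in the second, and 20.1% and 23.0% in the third. Egr2 passed the filter through NIH3T3 alone, which favours its calls. Etv5, an ETS factor that follows FGF signalling, measured 105, 114 and 115 FPKM in ES cells, 2.00 to 8.13 in NMuMG and 8.08 to 15.0 in NIH3T3. It was higher in ES cells than in NMuMG (log2 change 4.53, SE 0.341, limma adjusted p = 1.395e-06), as was Etv4 (log2 change 2.43, SE 0.543, limma adjusted p = 0.002547). Fosl1, an AP-1 member, was listed at 0 in each ES replicate, beside 6.79 to 23.8 FPKM in NMuMG and 10.7 to 69.5 in NIH3T3, and Ier3 fell in ES cells against NMuMG (log2 change -3.65, SE 0.607, limma adjusted p = 0.000389). In NIH3T3 against NMuMG the count of higher factors was 3 without NMuMG replicate 2, 3 without NIH3T3 replicate 1 and 3 with the library series as a term, and that of lower factors was 4 without NIH3T3 replicate 1 and 0 with no filter, with the series term, in series 2 alone, with parental cultures only, or without NMuMG replicate 4, NIH3T3 replicate 2 or NIH3T3 replicate 3. Egr1 was highest in NIH3T3 replicate 1, at 183 FPKM beside 29.6 and 19.5 in replicates 2 and 3.

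**Figure D5:**
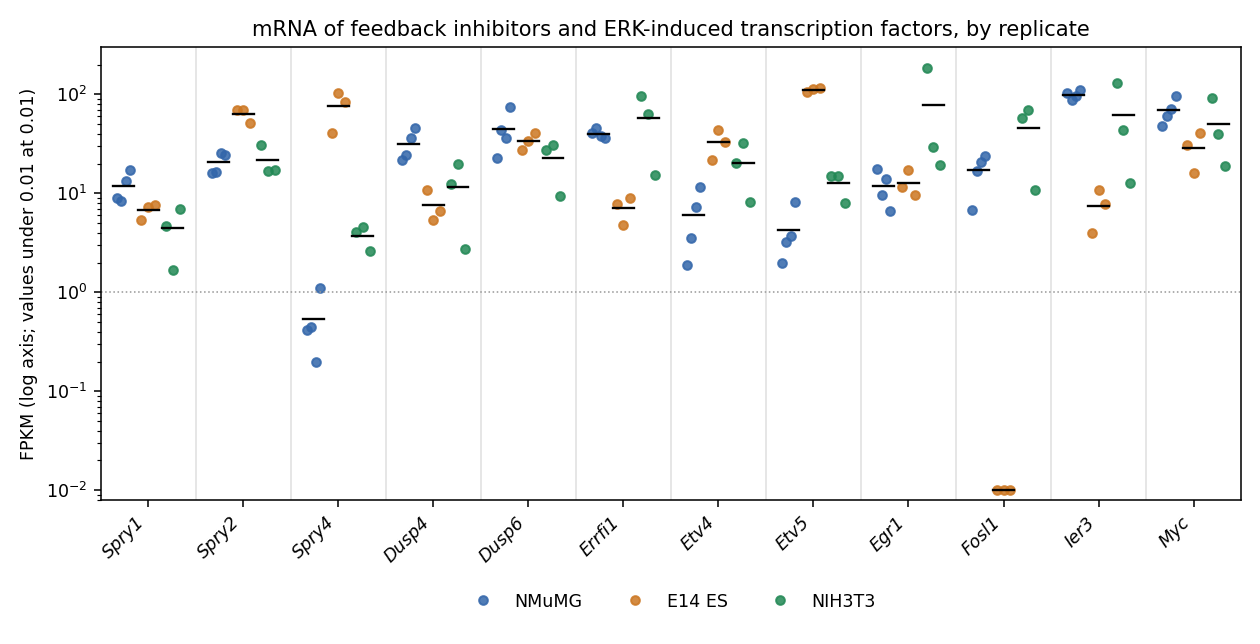
Level of 12 feedback inhibitors and ERK-induced transcription factors in FPKM on a log axis, with 1 point per replicate, the line mean as a bar and values under 0.01 drawn at 0.01; the dotted line marks 1 FPKM. Spry4 and Etv5 are highest in E14 ES cells (40.8 FPKM or more and 105 or more), where Fosl1 is listed at 0. The third NIH3T3 point lies lowest of its line for every gene drawn except Spry1 and Spry2.

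Patterns over the 10 replicates were compared with Pearson's r of log2(FPKM + 1), as a description over replicates that share their line. Among the receptors the closest pairs were Pdgfra with Pdgfrb (r = 0.991, n = 10) and Erbb2 with Met (r = 0.975), and the most opposed was Fgfr1 with Egfr (r = -0.909). Of all genes tested, those most like Erbb2 were Kif1c, Aph1a and Bahd1 (r = 0.998, 0.997 and 0.995), and those most like Met were Sh3bp5, Ttc21b and H2-T10 (0.994, 0.993 and 0.993). Pdgfra was closest to Ust, Colec12 and Ebf1 (0.998, 0.997 and 0.996), and Pdgfrb to Col5a1, Hspa12b and Emilin2 (0.998, 0.997 and 0.996). Fgfr1 was closest to Fkbp10, Clip3 and Gpx7 (0.994, 0.994 and 0.991), and Fgfr2 to Irf1, Ddr1 and Zbtb1 (0.990, 0.960 and 0.958). For Fgfr3 these were Ugt2b36, Abcb4 and 1190002N15Rik (0.994, 0.993 and 0.992), for Egfr Tinag and Gpd1l (0.988 and 0.988), and for Erbb3 Ribc1, Mrpl24 and Lrfn1 (0.973, 0.971 and 0.968).

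The levels of Erbb2 and Met went together across the lines but not within NMuMG or NIH3T3. In NMuMG, Met was highest in replicate 3, where Erbb2 was lowest. In NIH3T3 replicates 1 to 3, Erbb2 was at 13.5, 15.8 and 16.9 FPKM and Met at 21.4, 14.4 and 14.2. Their promoters, and that of Pdgfra, the leading fibroblast receptor, are shown from RefSeq (GRCm38.p6). The windows run from 250 bases before to 50 after the start, on the plus strand. They lie at chr11:98412234-98412533, chr6:17463707-17464006 and chr5:75152001-75152300, and capitals mark GGGCGG, the core of a GC box, or its reverse complement.
Erbb2: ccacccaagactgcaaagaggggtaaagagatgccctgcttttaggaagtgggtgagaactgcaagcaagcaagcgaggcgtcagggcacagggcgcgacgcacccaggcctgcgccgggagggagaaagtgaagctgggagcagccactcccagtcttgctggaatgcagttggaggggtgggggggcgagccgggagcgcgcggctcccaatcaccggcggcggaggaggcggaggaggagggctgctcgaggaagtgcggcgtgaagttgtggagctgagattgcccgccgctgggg
Met: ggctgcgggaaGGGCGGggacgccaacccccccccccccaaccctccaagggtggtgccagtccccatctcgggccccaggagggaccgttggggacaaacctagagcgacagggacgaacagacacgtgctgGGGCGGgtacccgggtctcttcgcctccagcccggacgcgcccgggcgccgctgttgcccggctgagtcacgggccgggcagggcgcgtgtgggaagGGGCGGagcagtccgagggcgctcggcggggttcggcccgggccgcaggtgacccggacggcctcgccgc
Pdgfra: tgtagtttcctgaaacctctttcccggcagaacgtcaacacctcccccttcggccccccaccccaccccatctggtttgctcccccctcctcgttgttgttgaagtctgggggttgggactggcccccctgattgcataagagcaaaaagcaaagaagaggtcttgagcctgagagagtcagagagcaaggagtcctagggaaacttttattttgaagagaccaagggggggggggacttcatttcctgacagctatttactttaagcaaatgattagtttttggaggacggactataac
The Met window is 75.7% G and C, that of Erbb2 66.0% and that of Pdgfra 51.0%, beside a median of 52.7% over all windows. Searched on both strands, GGGCGG was found 3 times for Met and in 35.7% of 32851 windows, CCAAT once for Erbb2 and in 37.4% of windows, and TATAAA in none of the 3 and in 13.6%; these 3 motifs cannot overlap one another in full. Of the 7 receptors whose windows were examined, 4 had GGGCGG, 2 had CCAAT and 0 had TATAAA. A match describes letters and shows no bound factor.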

How the data were processed

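Total RNA of 3 mouse cell lines was sequenced in 11 libraries. RNA was column-purified and made into RNA-seq libraries with a commercial kit, per the labels' protocols. Base calling with bcl2fastq 1.8.4, alignment with TopHat and quantification with Cufflinks on mm10 are named in the submitters' processing notes, which give no versions for the last 2. The authors deposited 1 table of FPKM per library, used without rescaling. FPKM holds no read counts, so depth is unknown; relative depth was read from the deposited upper bounds of 493 entries at 0 in every library and is uncertain. Of 23355 symbols, 260 stood on more than 1 entry and were summed (none a receptor), and Fn1, Rn45s and Tpm3, with a failed or too deep entry, were left out.

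limma 3.58.1 (R 4.3.3) was fitted to log2(FPKM + 1) with an intensity trend, two-sided, with Benjamini-Hochberg adjustment over all genes tested. The line fit used 10 replicates and kept genes that reached 1 FPKM in 3 or more; the reporter fit used the 7 NMuMG and ES replicates and kept genes that did so in 2 or more. ES replicate 2 is the mean of a pair of technical runs. A call needed an adjusted p under 0.05 and a 2-fold change. The procedure was tested on simulated data. NIH3T3 replicates 2 and 3 were left out of the reporter fit, because their tables could not be tied to single samples.

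The receptors, gene lists and marker lists were chosen with earlier results of these data known. Genes named from each list are the 2 called genes with the largest change in each direction and the leading ligand of each line, and for each receptor the 3 genes most like it (1 result of this kind is not reported here); other listed genes that are named were chosen after their values were seen. Alternatives covered the pseudocount, the filter, the normalization, the library series, parental cultures, single technical runs and leaving out each replicate. Gene positions are those of the tables with 1 added to the start; receptor coding bases are from GENCODE M21 and promoters from RefSeq. Python 3.11.15, pandas 2.3.3, NumPy 2.4.6, SciPy 1.17.1 and matplotlib 3.10.9 were also used.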

Additional observations from a re-analysis of the deposited data

Results flagged for a closer look

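Of 61 listed genes whose 4 NMuMG values were examined, 5 had a replicate far from the other 3 by Dixon's criterion for a gap over the range; chance alone gives about 1 in 20. Egfr was at 21.5 FPKM in NMuMG replicate 3, beside 11.3 to 11.8 in the others. Fgf18 was at 5.92 FPKM in NMuMG replicate 1, beside 1.15 to 1.89, and Rbfox2, a splicing factor, at 17.7 in replicate 3, beside 23.5 to 24.7. Fgf17 and Sulf1 were at 0.219 and 0.00938 FPKM in NMuMG replicate 1 and listed at 0 in the others, which are levels near the floor of the tables. The ES and NIH3T3 groups, with 3 replicates each, were not examined in this way.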

How the results depend on the processing

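Receptor calls of the line comparisons changed most when fewer libraries were fitted, where fewer replicates were also available. Main counts of called receptors were 6 in NIH3T3 against NMuMG, 6 in ES cells against NMuMG and 7 in ES cells against NIH3T3, and of called genes 3085, 5651 and 5315. With library series 2 alone they were 3, 3 and 3 receptors and 885, 2078 and 1696 genes. With parental cultures only, where ES cells and NIH3T3 have 1 replicate each that is assumed to vary like NMuMG, 3, 4 and 4 receptors were called, and 941, 2412 and 2030 genes; in ES cells against NMuMG these were Fgfr1, Erbb2, Erbb3 and Pdgfra, while Fgfr2, Fgfr3, Egfr and Met were lost. Folds between means without each replicate, in the report, were added with the data known. Leaving out 1 replicate gave 6 to 7, 6 to 6 and 6 to 7 receptors and 2909 to 3345, 5490 to 5833 and 4941 to 5461 genes. Signs that turned belong to uncalled line differences, ES cells against NIH3T3: Egfr (0.0017 with a pseudocount of 0.1 FPKM, and from -0.3897 to 0.1125, the latter without NIH3T3 replicate 1, when 1 replicate was left out) and Fgfr3 (-0.4402 with the library series as a term, the replicate block). Another is Fgfr2, called in the main result, at 0.0689 (adjusted p = 0.9461 by limma) with parental cultures only; the cause was not tested.

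The reporter counts were unstable. In NMuMG 26 genes were called, against 59 with a pseudocount of 0.1 FPKM, 7 with no filter, 10 with quantile normalization, 8 with the replicate block and 0 to 62 when 1 replicate was left out. In ES cells 12 genes were called, against 203 with no filter, 0 with quantile normalization, 0 with the replicate block and 0 to 198 when 1 replicate was left out; no receptor was called in any of these. Uncalled reporter changes that turned sign were, in NMuMG, Fgfr3 (0.5292 without NMuMG replicate 1, and -1.7327 to 0.7571 over the replicates left out), Erbb2 (-0.0331 without replicate 3, and -0.0524 to 0.123) and Met (-0.4837 to 0.2952). In ES cells they were Fgfr3 (0.0547 with quantile normalization, 0.7748 with the replicate block, and -0.201 to 0.1318 over the replicates left out), Fgfr4 (0.2049 with the replicate block, and -0.3023 to 0.161), Fgfr1 (-0.365 to 0.4089) and Erbb2 (-0.4916 to 0.0137). Same-numbered NMuMG cultures deviated together with r = 0.274 over 12276 genes, from 2 pairs. They also share a library series, so label number and series cannot be told apart. The main fit did not pair them, so series differences enter its SE, and the replicate block is the fit that takes the series in.

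Among listed genes, calls of Fgf18, Dusp4, Spry1, Junb, Gab2, Nras and Rbfox2 were also lost under at least 1 alternative. Depth is unknown, so no counting error can be given for values near 0.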
